A study of Mus musculus with 8 samples.

Results

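The NF-kappaB system of tumor-educated macrophages (TEMs) was followed through 10 genes, which were its 5 subunits (*Rela*, *Rel*, *Relb*, *Nfkb1* and *Nfkb2*) and 5 inhibitors that act on them or are made in response to them (*Nfkbia*, *Nfkbib*, *Nfkbie*, *Nfkbiz* and *Tnfaip3*). The members were chosen by gene symbol, and all 10 were found among the 18635 genes of the table. RNA sequencing compared bone marrow-derived macrophages (BMDMs) of *Phgdh* fl/fl *Cx3cr1*-Cre mice with those of *Phgdh* fl/fl littermates, both on a C57BL/6 background. *Phgdh* encodes the first enzyme of serine synthesis from glucose. Both groups carried floxed *Phgdh*, so the control (labelled WT) was a floxed mouse without Cre. In the other group Cre was expressed from one allele of *Cx3cr1*, a gene of the monocyte and macrophage lineage, so that loss of *Phgdh*, presence of Cre and the altered *Cx3cr1* allele cannot be told apart. All BMDMs had spent 24 h in medium conditioned by AE17 cells, a mouse mesothelioma line (AE17-TCM), and each group held 4 samples described as biological replicates. BMDMs without TCM were not analysed here, so a difference is one between genotypes in TCM and not a response to it.

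NF-kappaB transcription factors are dimers of Rel-domain proteins. In resting macrophages the classical inhibitors IκBα, IκBβ and IκBε hold them in the cytoplasm, and signals from Toll-like and cytokine receptors lead to phosphorylation and breakdown of these inhibitors. Freed dimers enter the nucleus, activate inflammatory genes and also induce several of their own inhibitors, which closes a feedback loop. A second, slower branch processes the *Nfkb2* precursor and acts mainly through RelB.

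Sequence is shown next to 4 of the members that differed between genotypes in the results below. Induction of inhibitors by NF-kappaB itself is part of the background above. *Nfkb1* and *Nfkbiz* also differed, but no promoter window was held for them. Each line holds the 250 bases upstream of a RefSeq transcription start on the gene's own strand (GRCm38.p6, the assembly of mm10), with matches to the consensus kappaB site on either strand in capitals.
Nfkbie: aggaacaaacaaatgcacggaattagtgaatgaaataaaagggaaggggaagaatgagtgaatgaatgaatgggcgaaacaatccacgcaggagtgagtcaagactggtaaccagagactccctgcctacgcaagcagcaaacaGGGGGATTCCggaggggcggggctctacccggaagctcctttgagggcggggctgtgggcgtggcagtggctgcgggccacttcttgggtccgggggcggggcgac
Nfkbia: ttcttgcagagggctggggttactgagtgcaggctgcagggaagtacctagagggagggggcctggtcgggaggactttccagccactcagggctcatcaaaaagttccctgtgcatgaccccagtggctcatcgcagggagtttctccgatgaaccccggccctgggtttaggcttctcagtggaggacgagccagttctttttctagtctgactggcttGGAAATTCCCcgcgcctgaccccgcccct
Nfkb2: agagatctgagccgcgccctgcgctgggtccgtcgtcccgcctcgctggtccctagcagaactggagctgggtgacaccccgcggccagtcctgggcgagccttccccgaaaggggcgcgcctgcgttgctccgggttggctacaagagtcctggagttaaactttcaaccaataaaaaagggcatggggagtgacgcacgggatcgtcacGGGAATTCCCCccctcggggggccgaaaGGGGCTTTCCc
Nfkbib: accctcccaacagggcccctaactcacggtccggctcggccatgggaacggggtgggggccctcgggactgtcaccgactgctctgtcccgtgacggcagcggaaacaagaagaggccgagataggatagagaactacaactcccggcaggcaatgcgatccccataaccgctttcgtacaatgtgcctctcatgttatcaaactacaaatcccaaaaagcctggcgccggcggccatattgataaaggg
The windows lay at chr17:45555450-45555699 (plus strand), chr12:55492648-55492897 (minus strand), chr19:46304487-46304736 (plus strand) and chr7:28766645-28766894 (minus strand). The match of *Nfkbie* began 106 bases and that of *Nfkbia* 29 bases upstream of the start. *Nfkb2* held a pair of matches that overlapped each other, 39 and 38 bases upstream, and another at 11 bases, whereas these letters were not in the *Nfkbib* window. In windows reaching 50 bases past the start, the consensus occurred in 1480 of 32851 RefSeq promoters (4.51%). The 10 such windows held for members belonged to 7 of them, and none was held for *Relb*, *Nfkb1* and *Nfkbiz*. A match was found in 7 of the windows, which belonged to 5 members. *Nfkb2* had 3 windows, all with a match and 1 of them shown. Those not shown overlap and share a match, which was counted in each, so windows are not independent. *Tnfaip3* had a window with and another without a match, and the windows of *Rela* and *Nfkbib* had none. A match is a description of letters and not evidence of binding.

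Of the 10 members, 4 were higher in PHGDH-deficient TEMs (*Nfkbie*, *Nfkbib*, *Nfkb2* and *Nfkb1*), 2 were lower (*Nfkbia* and *Nfkbiz*), and 4 did not pass the test (*Rela*, *Rel*, *Relb* and *Tnfaip3*). The test was limma on log2(normalized count + 1) over all 13629 genes with a mean of at least 10 normalized counts, with a call at an adjusted p under 0.05. Genotype differences were common in this table, since 41.0% of the tested genes were called, 20.8% as higher and 20.3% as lower. Samples of one genotype lay wholly above or below those of the other for 6 of the 10 members, and for 36.7% of all tested genes. Medians of the log2 difference were 0.06 over the members and -0.0018 over the whole table tested. Without regard to sign, the median over all tested genes was 0.12. Fold changes are given as *Phgdh* fl/fl *Cx3cr1*-Cre over *Phgdh* fl/fl on the log2(value + 1) scale, and p-values measure only the spread between these samples. In bulk RNA, fewer cells of a type and less RNA per cell cannot be told apart.

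**Figure D1:**
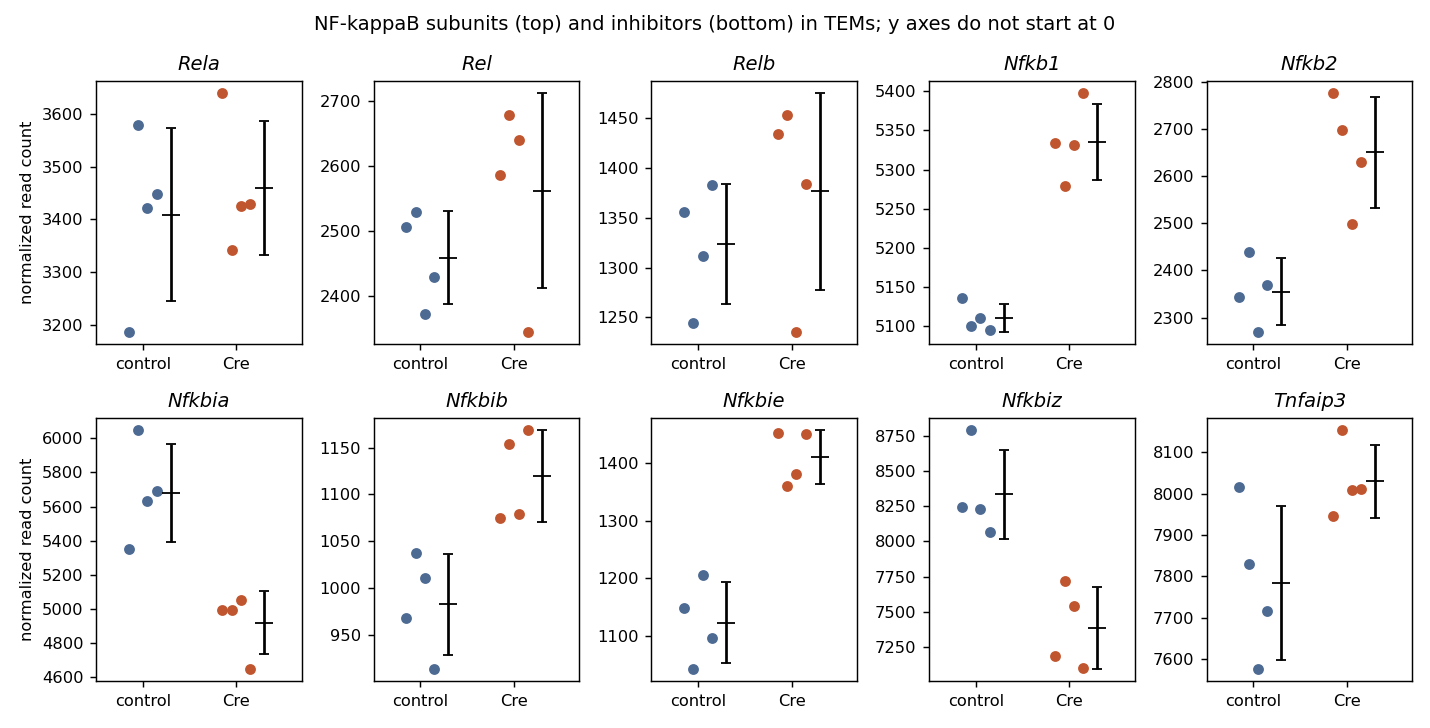
Normalized read counts of the 10 members in each of the 8 samples (subunits in the top row, inhibitors in the bottom row), with the mean and SD of each group of 4 beside the points; the y axes do not start at 0. The groups are apart for *Nfkb1*, *Nfkb2*, *Nfkbia*, *Nfkbib*, *Nfkbie* and *Nfkbiz* and overlap for *Rela*, *Rel*, *Relb* and *Tnfaip3*.

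Among the subunits, *Rela* (ENSMUSG00000024927, chromosome 19, 5637483 to 5648130, plus strand, mm10) encodes p65, the main transactivating subunit of the classical pathway. Its normalized counts were 3186, 3579, 3422 and 3449 in the controls and 3640, 3342, 3426 and 3429 in PHGDH-deficient TEMs. The groups overlapped, with only the lowest control and the highest PHGDH-deficient sample outside the stretch they shared, and the means were 3409 ± 164 and 3459 ± 127 (SD, n = 4). The log2 difference was 0.02 with a 95% confidence interval from -0.05 to 0.09 (limma adjusted p = 0.648). Its sign changed without *Phgdh* fl/fl replicate 1 (-0.01) and without *Phgdh* fl/fl *Cx3cr1*-Cre replicate 1 (-0.0030), and it was not called in either case.

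*Rel* encodes c-Rel, a subunit of immune cells that carries a transactivation domain, and lies on chromosome 11. Its counts ran from 2372 to 2529 in controls and from 2345 to 2679 in PHGDH-deficient TEMs, the lowest of all 8 being *Phgdh* fl/fl *Cx3cr1*-Cre replicate 4. The log2 difference was 0.06 (95% interval -0.02 to 0.14, limma adjusted p = 0.229). Without that replicate it was 0.10 and passed the test (adjusted p = 0.0232). *Relb*, on chromosome 7, encodes the partner of processed p100 in the slower branch. Its counts ran from 1244 to 1382 and from 1235 to 1453, with a log2 difference of 0.05 (95% interval -0.04 to 0.15, limma adjusted p = 0.373).

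*Nfkb1*, on chromosome 3, encodes p105, the precursor of p50. Its counts were 5136, 5100, 5111 and 5096 in controls and 5333, 5278, 5331 and 5398 in PHGDH-deficient TEMs. All PHGDH-deficient samples lay above all controls, but the step was small beside those of other called members. The means differed by 4.39% (5111 ± 18.3 and 5335 ± 48.8, SD, n = 4), a log2 difference of 0.06 (SE 0.02, limma adjusted p = 0.0339). The spread was narrow, with a coefficient of variation of 0.358% in controls and 0.915% in PHGDH-deficient TEMs. The call does not rest on this, since limma draws each SE towards that of genes with similar counts. At 0.0228 it was near that of *Tnfaip3* (0.0234), whose controls varied by 2.38%. The call was lost with quantile normalization (limma adjusted p = 0.145) and without a filter on low counts (0.0539). It was also lost on leaving out any 1 sample other than *Phgdh* fl/fl replicate 1 (0.0502 to 0.0932).

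*Nfkb2* (chromosome 19, 46304320 to 46312385, plus strand) encodes p100, the precursor of p52, which also retains dimers in the cytoplasm as an inhibitor. Its counts were 2344, 2439, 2269 and 2369 in controls and 2776, 2697, 2499 and 2629 in PHGDH-deficient TEMs. All PHGDH-deficient samples were higher, with means of 2355 ± 70.2 and 2650 ± 117 (SD, n = 4), a difference of 12.5%. On the log2 scale *Nfkb2* rose by 0.17 (SE 0.03, limma adjusted p = 0.000354), the only subunit to do so by over 0.1. Exons of *Psd* and AC114539.1 on the other strand overlap those of *Nfkb2* by 299 and 531 bases, and whether counting used strand is not given in the sources used here. *Psd* had a mean of only 6.47 normalized counts.

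**Figure D2:**
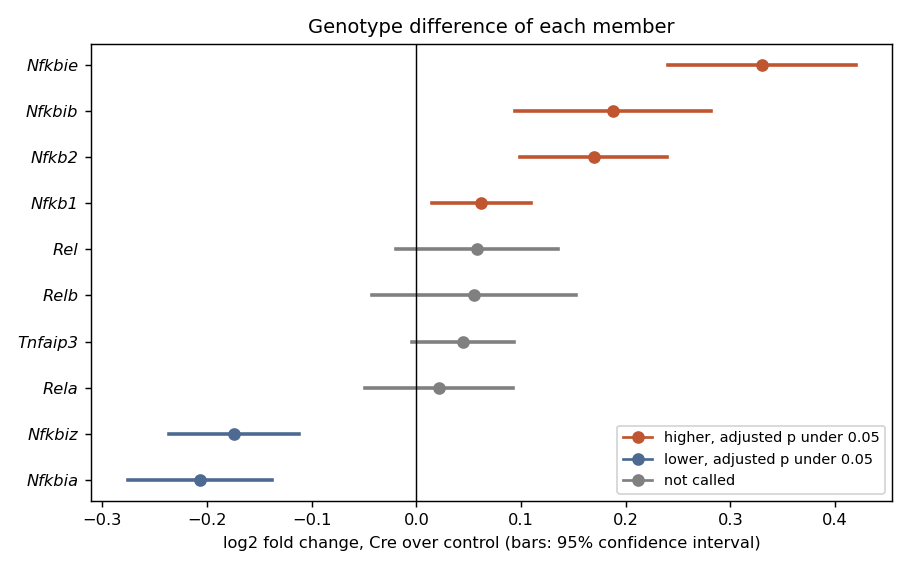
Log2 fold change of each member, *Phgdh* fl/fl *Cx3cr1*-Cre over *Phgdh* fl/fl, with its 95% confidence interval from limma, ordered by size and coloured by call. *Nfkbie* is at the top with 0.33 and *Nfkbia* at the bottom with -0.21, and the intervals of the 4 uncalled members include 0.

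The 3 classical inhibitors did not move as one group, since *Nfkbia* fell while *Nfkbib* and *Nfkbie* rose. *Nfkbia* (ENSMUSG00000021025, chromosome 12, 55489410 to 55492647, minus strand) encodes IκBα, the fast-turnover inhibitor that NF-kappaB itself induces. Its counts were 5351, 6050, 5634 and 5693 in controls and 4991, 4992, 5052 and 4649 in PHGDH-deficient TEMs. Every PHGDH-deficient sample lay below every control, and *Phgdh* fl/fl *Cx3cr1*-Cre replicate 4 was the lowest. The means were 5682 ± 287 and 4921 ± 184 (SD, n = 4), and the log2 fold change was -0.21 (SE 0.03, limma adjusted p = 3.32e-05).

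*Nfkbie* (ENSMUSG00000023947, chromosome 17, 45555703 to 45563169, plus strand) encodes IκBε, a slower inducible inhibitor. Its counts were 1148, 1043, 1205 and 1096 in controls and 1451, 1360, 1382 and 1450 in PHGDH-deficient TEMs. The groups were well apart, and the means rose from 1123 ± 69.6 to 1411 ± 46.9 (SD, n = 4), a difference of 25.6%. With a log2 fold change of 0.33 (SE 0.04, limma adjusted p = 2.64e-06), *Nfkbie* moved furthest of the 10 members.

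*Nfkbib* (chromosome 7, 28758251 to 28767512, minus strand) encodes IκBβ, which is more slowly degraded than IκBα. Its counts were 969, 1037, 1011 and 914 in controls and 1075, 1154, 1080 and 1169 in PHGDH-deficient TEMs. The groups did not overlap, though *Phgdh* fl/fl replicate 2 came close to the lowest PHGDH-deficient sample. The means were 983 ± 53.8 and 1119 ± 49.1 (SD, n = 4), and the log2 fold change was 0.19 (SE 0.05, limma adjusted p = 0.00195). Exons of *Nfkbib* share 42 bases with *Sirt2* and 314 with *Ccer2* on the other strand. *Sirt2*, with a mean of 6040 normalized counts, was itself higher by 0.11 on the log2 scale (limma adjusted p = 0.000561), and its part in the *Nfkbib* count was not tested.

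The other inhibitors act at different steps. *Nfkbiz* (chromosome 16, 55811375 to 55838899, minus strand) encodes IκBζ, a nuclear protein that restrains some NF-kappaB dimers and is also a co-activator of secondary response genes such as *Il6* and *Lcn2*. Its counts were 8244, 8794, 8231 and 8066 in controls and 7185, 7721, 7540 and 7103 in PHGDH-deficient TEMs. All PHGDH-deficient samples were lower, with means of 8334 ± 317 and 7387 ± 292 (SD, n = 4) and a log2 fold change of -0.17 (SE 0.03, limma adjusted p = 7.15e-05).

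*Tnfaip3*, on chromosome 10, encodes A20, the ubiquitin-editing enzyme that shuts off signalling above the IκB kinases. Its counts were 8016, 7831, 7577 and 7717 in controls and 7947, 8154, 8009 and 8010 in PHGDH-deficient TEMs. The groups overlapped through *Phgdh* fl/fl replicate 1, which lay above 3 of the PHGDH-deficient samples. The log2 difference was 0.04 (95% interval -0.0038 to 0.09, limma adjusted p = 0.134). It passed the test when samples were scaled to total reads (adjusted p = 0.0499) and without that control replicate (adjusted p = 0.0331).

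Exact two-sided permutation tests over the 70 labelings gave p = 0.0286, the smallest that 4 against 4 samples allow, for each of the 6 called members. Every gene whose groups do not overlap gives this p, and 36.7% of all tested genes had such groups. For the uncalled members the exact permutation p ran from 0.114 (*Tnfaip3*) to 0.657 (*Rela*).

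Per length of exon, *Nfkbia* was the most abundant member, with 81.4 ± 4.12 RPKM (reads per kilobase, scaled to library size) in controls and 71.3 ± 2.73 in PHGDH-deficient TEMs. *Nfkbiz* followed with 38.3 and 34.3 on this scale. *Rela* (25.6 in controls) and *Tnfaip3* (24.9) came next and overlapped each other. *Nfkb2* (11.9) lay above *Nfkbib* (10.5) in every control, *Nfkbib* overlapped *Nfkb1* (9.78), *Nfkbie* (8.51) overlapped *Relb* (7.86), and *Relb* overlapped *Rel* (7.60). In PHGDH-deficient TEMs the order of *Nfkbie* and *Nfkb1* was exchanged, at 10.8 and 10.3, and their ranges did not meet. Length was taken over the union of annotated exons, which can exceed the transcript that a macrophage makes. It was 12061 bases for *Nfkb1* and 3045 for *Nfkbie*, on which their order depends. In normalized counts *Nfkb1* lay above *Nfkbie* in every sample.

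Ratios within a sample do not depend on the factor by which that sample was scaled, and are given as descriptions, since they were chosen after the values were seen. Counts of *Nfkbie* relative to *Nfkbia* were 0.215, 0.172, 0.214 and 0.193 in controls and 0.291, 0.273, 0.274 and 0.312 in PHGDH-deficient TEMs. The ranges did not meet, and neither did those of *Nfkbib* relative to *Nfkbia*, with means of 0.173 and 0.228. *Nfkbia* made up 81.1% ± 1.04 of the reads per kilobase of the 3 classical inhibitors in controls and 75.7% ± 1.19 in PHGDH-deficient TEMs (SD, n = 4), while the share of *Nfkbie* was 8.50% and 11.5%. Summed reads per kilobase of these inhibitors relative to the 5 subunits were 1.60 ± 0.041 in controls and 1.42 ± 0.043 in PHGDH-deficient TEMs. Among the subunits, *Nfkb2* held 18.9% and 20.3% and *Rela* 40.8% and 39.6%, and the ratio of *Nfkb2* to *Rela* counts overlapped between groups (0.663 to 0.736 and 0.729 to 0.807).

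**Figure D3:**
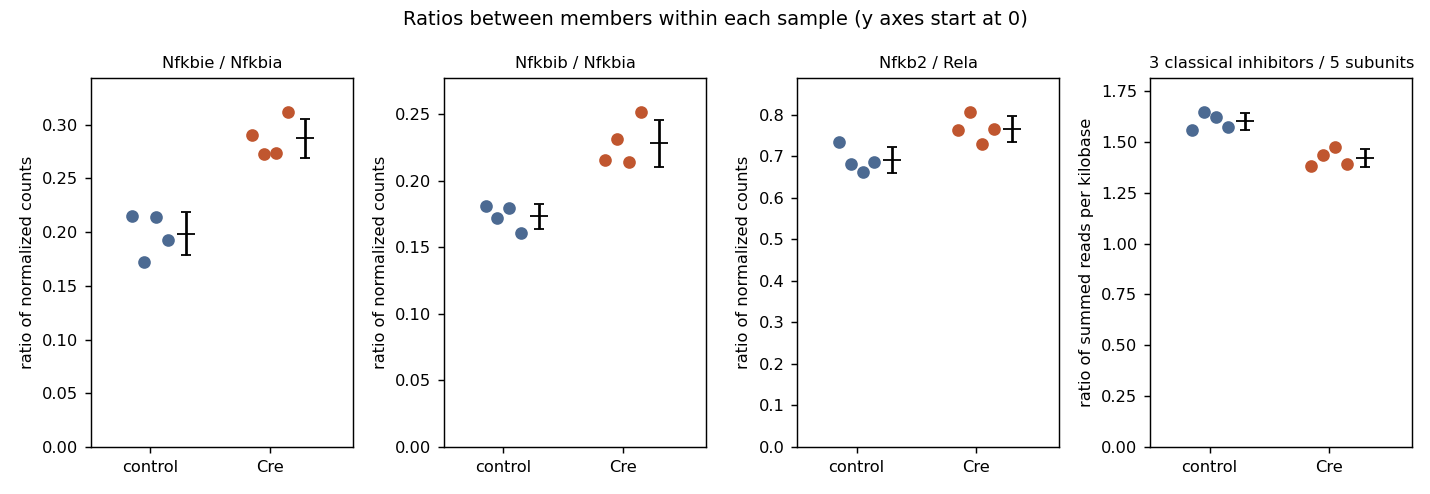
Ratios between members within each of the 8 samples, with the mean and SD of each group of 4; the left 3 panels are ratios of normalized counts and the right panel is a ratio of summed reads per kilobase, and all axes start at 0. The groups are apart for both ratios to *Nfkbia* and for inhibitors over subunits, and overlap for *Nfkb2* over *Rela*.

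Genes around the members were read from lists arranged by role. Of 21 receptors and upstream signalling genes, 7 were higher, 4 were lower and 10 did not pass the test. The share called was 52.4%, beside 41.0% of all tested genes, and the median log2 difference was 0.02. The higher genes included *Traf3* (0.27, limma adjusted p = 8.11e-07), *Birc3* (0.23, 1.84e-06) and *Birc2* (0.23, 5.17e-05), which encode parts of the complex that keeps the kinase of the slower branch low, and *Traf6* (0.18, 0.000369), a ubiquitin ligase of Toll-like receptor signalling. That kinase, *Map3k14*, had a log2 difference of -0.11 and was not called, and is named after its value was seen. *Traf2*, also named after its values were seen, was called higher (0.12, limma adjusted p = 0.044), though its groups overlapped. Its call was lost in 8 of 17 alternatives. The lower genes were *Cd40* (-0.23, limma adjusted p = 0.00764), a receptor that feeds the slower branch, the adaptor *Myd88* (-0.13, 0.00241), the kinase *Irak4* (-0.11, 0.00701) and the TNF receptor *Tnfrsf1a* (-0.08, 0.00786).

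Of 13 other feedback regulators, 6 were higher, 2 were lower and 5 did not pass, with a median of -0.0091. The share called was 61.5%, beside 41.0% of all tested genes. *Tnip1* (0.21, limma adjusted p = 1.68e-06), *Tax1bp1* (0.20, 9.68e-08) and *Rnf11* (0.13, 0.000242), which encode some of the partners of A20, were higher. *Tnfaip3* itself was not called. The deubiquitinase *Cyld* was also higher (0.20, limma adjusted p = 1.2e-05). The relatives of *Tnip1* did not rise with it. *Tnip3* was lower (-0.17, limma adjusted p = 7.81e-06), and *Tnip2*, named after its value was seen, was not called (-0.04, 0.4). The RNase gene *Zc3h12a* was also lower (-0.09, limma adjusted p = 0.0332). Its call was lost in 8 of 17 alternatives, 6 of them leaving out 1 sample (limma adjusted p up to 0.103).

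Of 28 textbook NF-kappaB targets, 25 were tested. *Vcam1* and *Csf3* were under the minimum count and *Csf2* was not analysed here. Of the 25, 18 were higher (72.0%, beside 41.0% of all tested genes called and 20.8% called higher). The other 7 did not pass, and the median log2 difference was 0.32. Several, such as *Nos2* and *Ccl5*, are inflammatory macrophage genes that the study itself examined in these samples, so the direction of this list is not independent evidence. *Il6* had the greatest fold change, 0.92 (19.7 ± 5.99 and 37.7 ± 9.79 normalized counts, SD, n = 4, limma adjusted p = 0.00568), at a low count. *Lcn2* (0.83, limma adjusted p = 6.82e-09), *Il12b* (0.83, 7.84e-06) and *Nos2* (0.72, 0.000106) followed. *Il6* and *Lcn2* were higher in the group in which *Nfkbiz* was lower, and a link between them was not tested. The uncalled targets were *Tnf*, *Cxcl2*, *Cxcl10*, *Ccl2*, *Bcl2a1b*, *Ier3* and *Irf1*, named after their values were seen, with log2 differences from -0.07 to 0.07.

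**Figure D4:**
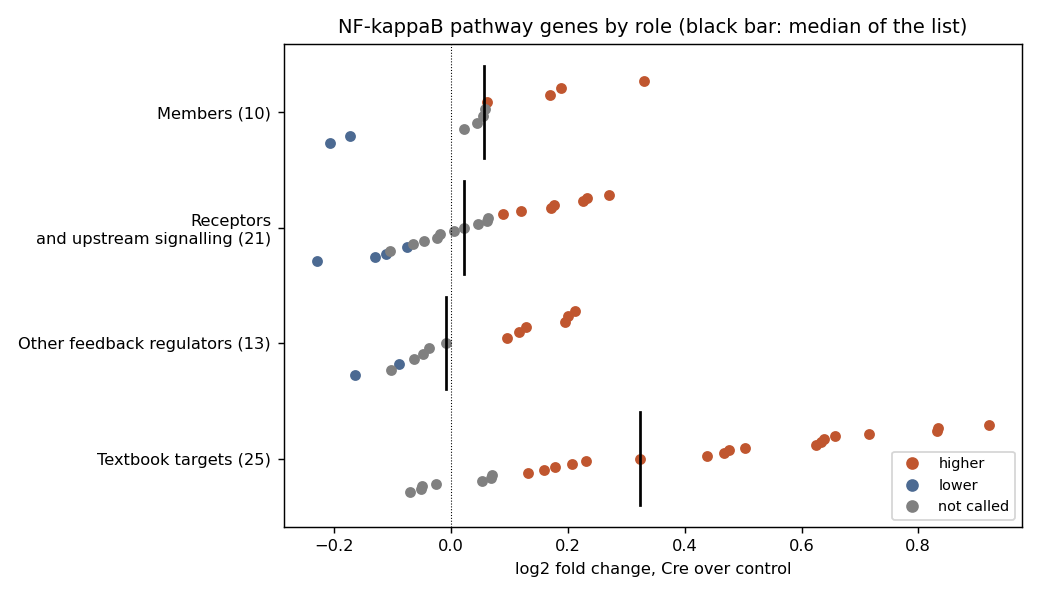
Log2 fold change of each tested gene in the 10 members and 3 lists of NF-kappaB pathway genes, coloured by call, with a black bar at the median of each list. The medians are 0.06 for members, 0.02 for receptors and upstream signalling, -0.0091 for other feedback regulators and 0.32 for textbook targets.

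The labels were checked with *Phgdh*, which had 119, 129, 117 and 104.9 normalized counts in controls and 32.6, 35.3, 14.2 and 26.3 in PHGDH-deficient TEMs. The log2 difference was -2.15 (SE 0.21, limma adjusted p = 5.09e-08), and *Phgdh* reads remained in all PHGDH-deficient samples. Depth ran from 38219563 to 47027420 recovered reads per sample. All 7 macrophage markers were present, with summed normalized counts of 986516 to 1075520 in controls and 973612 to 1049000 in PHGDH-deficient TEMs. Most of each sum was *Lyz2* (673223 to 757941 in controls), which was not called, so the sums say little about the other markers. *Fcgr1* (-0.40, limma adjusted p = 7.4e-12), *Itgam* (-0.19, 7.03e-06) and *Adgre1* (-0.08, 0.00558) were lower. Of 3 markers for each of the other types, none for T cells and neutrophils was listed in the table, and the summed counts were at most 4.13 for B cells, 38.6 for dendritic cells, 38.9 for fibroblasts and 5.08 for mesothelial cells.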

How the data were processed

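Total RNA of 8 BMDM samples in AE17-TCM was sequenced from directional libraries. Per the submitters' processing notes the tools were TopHat2, HTSeq 0.6 and DESeq2 with build mm10, and the strand setting of counting is not given in the sources used here. The deposited values are a signal, read counts per gene divided by a size factor for each sample by the authors. The deposited columns of the authors' own comparison (log2 fold change, its error, statistic and p-values) were not used. Whole reads were recovered for 100% of 144353 values above 0, within 0.01 reads.

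The main test was limma 3.58.1 (R 4.3.3) on log2(normalized count + 1) with a trend, over genes with a mean of at least 10, with Benjamini-Hochberg adjustment. Exact permutation tests used scipy 1.17.1 (Python 3.11.15). Alternatives were edgeR 4.0.16 and DESeq2 1.42.0 on recovered reads, quantile normalization, total-read scaling, a pseudocount of 0.1, a minimum of 100 or none, no trend, a replicate block and leaving out each sample. The fits were tested on simulated data. Replicates differed by more than counting noise (chi-square per gene 1.79 to 6.2). The labels name no batch. The members and lists were chosen with earlier results of these data known. Named were all members, *Phgdh*, and up to 4 called genes in each direction per list with the largest fold changes, with exceptions stated. Positions and exon lengths are from GENCODE M21, and promoter windows from RefSeq (GRCm38.p6).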

Additional observations from a re-analysis of the deposited data

Results flagged for a closer look

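In 22 groups of 4 samples (the 10 members and *Phgdh*, in each genotype), 1 sample stood apart from the others of its group. *Nfkbia* had 4649 normalized counts in *Phgdh* fl/fl *Cx3cr1*-Cre replicate 4, and its gap to the nearest sample was 0.85 of the range of the group, above the 95% critical value of Dixon's test for 4 samples. Chance gives such a sample in about 1 of 20 groups. Without it *Nfkbia* was still lower, with a log2 fold change of -0.18 (limma adjusted p = 0.000274).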

How the results depend on the processing

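Of 170 values of members under the alternatives, 156 kept their direction and their side of the threshold, 2 changed sign without a call, both of *Rela*, 9 lost the call, all of *Nfkb1*, and 3 gained one, 1 of *Rel* and 2 of *Tnfaip3*. The calls of *Nfkb2*, *Nfkbia*, *Nfkbib*, *Nfkbie* and *Nfkbiz* held in all 17 alternatives, with limma, edgeR or DESeq2 adjusted p of at most 0.0224. Leaving out 1 sample at a time, log2 differences of uncalled genes crossed 0 for *Rela* (-0.010 to 0.046), *Bcl2a1b* (-0.067 to 0.0097), *Cxcl10* (-0.33 to 0.28, the latter without *Phgdh* fl/fl replicate 4), *Irak3* (-0.027 to 0.016) and *Tab2* (-0.0076 to 0.014). That of *Irak3* was also above 0 with total-read scaling (0.0060), and that of *Ripk1* below 0 with quantile normalization (-0.0042). None of these passed the threshold where its sign changed. The count of lower genes among the other feedback regulators, 2, was 1 with total-read scaling, 1 without a trend, and 1 to 3 on leaving out a sample. That of higher genes among receptors and upstream signalling genes, 7, was 9 with total-read scaling and 6 without a trend. Genes called across the table numbered 5594, and 4930 to 5608 under alternatives that kept all samples. Whether replicate numbers pair the samples could not be decided, because all correlations between deviations were weak. Those of same-numbered samples were 0.063 to 0.126, all above 0, and those of other pairs -0.124 to 0.135. The highest was that of *Phgdh* fl/fl *Cx3cr1*-Cre replicate 4 with control replicate 1. A replicate block called 5597 genes, with the same 4 members higher and 2 lower, and also *Bcl3*, which passed in 4 of 17 alternatives in all. Of the members, *Nfkbib* had the lowest count in any sample (914 normalized counts). The SE of the log2 difference ran from 0.0228 for *Nfkb1* to 0.0468 for *Relb*, which had lower counts. Whether depth limited the calls of members was not tested. *Il6*, with 12.1 to 49.5, is less precise.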

Other observations

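Among 10514 other genes with a mean of at least 100 normalized counts, those whose centred log2 values over the 8 samples lay nearest to *Nfkbie* were *Kif3a*, *Cd200r1* and *Tapt1*, with root-mean-square differences of 0.0373, 0.0392 and 0.0392. Nearest to *Nfkbia* were *Prdx5* (0.0204), *Cops6* (0.0269) and *Bpnt1* (0.0280). These are descriptions of likeness with no test.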
